A study of Mus musculus with 10 samples.

Results

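The glutathione and thioredoxin redox genes are 64 of the 19938 mouse genes measured on arrays of regulatory T cells from the spleen. They were chosen by name alone: glutathione transferases of the alpha, kappa, mu, omega, pi and theta classes and of microsomes, glutathione peroxidases, peroxiredoxins, thioredoxins with their reductases and relatives, glutaredoxins, the enzymes that make and reduce glutathione, superoxide dismutases and catalase. No expression value entered this rule, but the genes were chosen with earlier results of these data known. Where a gene had several probe sets, which was so for 5 of the 64, the brightest was taken. Genes whose probe set also matches another gene, such as Gstp2, Gsta1 and Gsta2, and the peroxiredoxins Prdx5 and Prdx6 were not analysed here.

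Cells meet peroxides with a pair of thiol systems that both draw their electrons from NADPH. In one, the tripeptide glutathione is made by glutamate-cysteine ligase and glutathione synthetase, is used by peroxidases, transferases and glutaredoxins, and is returned to its reduced form by glutathione reductase. In the other, thioredoxin is kept reduced by thioredoxin reductase and in turn reduces peroxiredoxins, and Txnip binds thioredoxin and inhibits it. In T cells, glutathione is known to be needed for growth after activation, and in regulatory T cells for suppressive function.

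Regulatory T cells (Tregs), which hold other immune cells in check, were sorted from the spleens of C57BL/6 females of 9 to 14 weeks as CD4+ cells carrying a red fluorescent reporter of Foxp3, the transcription factor that defines them. The reporter was shared by all groups, and no treatment is named. FR1 was CD62Lhi CD69- Klrg1- (n = 2 arrays), FR2 was CD62Llo CD69- Klrg1- (n = 2), FR3 Klrg1- was CD62Llo CD69+ Klrg1- (n = 4), and FR3 Klrg1+ was CD62Llo CD69+ Klrg1+ (n = 1). CD62L is a homing receptor for lymph nodes, CD69 an early activation marker and Klrg1 a receptor of differentiated lymphocytes. Replicates are called biological in the labels, but how many mice stand behind each replicate is not stated, so p-values measure the spread between these arrays.

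All values are RMA log2 intensities, on which 1 unit is a factor of 2. Array medians lay between 6.15 and 6.31. The arrays formed a first set of 6 (FR1, FR2 and FR3 Klrg1- replicates 1 and 2) and a second set of 3 (FR3 Klrg1- replicates 3 and 4 and FR3 Klrg1+), with correlations of 0.972 to 0.992 within a set and 0.901 to 0.921 between sets. Levels are therefore compared only within a set. Another array, titled FR3 but with the marker text of FR1, was placed in no comparison. The mean of the T cell markers was between 11.19 and 11.67 on every array, while the means of marker lists for NK cells, platelets, B cells, neutrophils, the erythroid line, dendritic cells and macrophages with monocytes lay between 4.37 and 6.22 and that of the CD8 T cell list between 6.57 and 7.19, with Cd8b1 at 7.30 to 8.04. Foxp3 lay between 9.63 and 10.93. The gate marker Klrg1 stood at 12.33 in FR3 Klrg1+ against 7.27 and 7.47 in the FR3 Klrg1- arrays of its set, but Cd69 did not follow its gate: it was 12.11 and 12.41 in FR1, 11.86 and 12.17 in FR2, and 12.02 and 12.15 in FR3 Klrg1- replicates 1 and 2.

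A gene is called here when its adjusted p in limma is under 0.05, with Benjamini-Hochberg adjustment over all 19938 genes. Of the 64 redox genes, 14 were called in at least 1 of 4 comparisons and 50 in none. The matching share of all genes was not computed, so only the counts per comparison have a background. In FR2 against FR1, 5 were called (1 higher, 4 lower), which is 7.81% against a background of 4.26% of all genes (1.96% higher, 2.3% lower). In FR3 Klrg1- against FR2, 8 were called (7 higher, 1 lower), 12.5% against 4.75% (2.81% higher, 1.94% lower). In FR3 Klrg1- against FR1, 6 were called (4 higher, 2 lower), 9.38% against 8.19% (4.39% higher, 3.79% lower), a share close to the background. In FR3 Klrg1+ against FR3 Klrg1-, 6 were called (1 higher, 5 lower), 9.38% against 4.96% (2.14% higher, 2.82% lower). The median difference of the 64 genes was -0.09, 0.04, 0.01 and -0.18 in the same order, against 0.02, -0.00, 0.02 and 0.00 over all genes. The FR3 Klrg1- comparisons with FR2 and with FR1 share their FR3 arrays, and the FR2 arrays enter both FR2 against FR1 and FR3 Klrg1- against FR2. The array set term bears on all of these counts: without it they were 1, 0, 2 and 0, and in the comparisons with 0 calls 17 and 11 redox genes had an unadjusted p under 0.05 in limma.

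**Figure D1:**
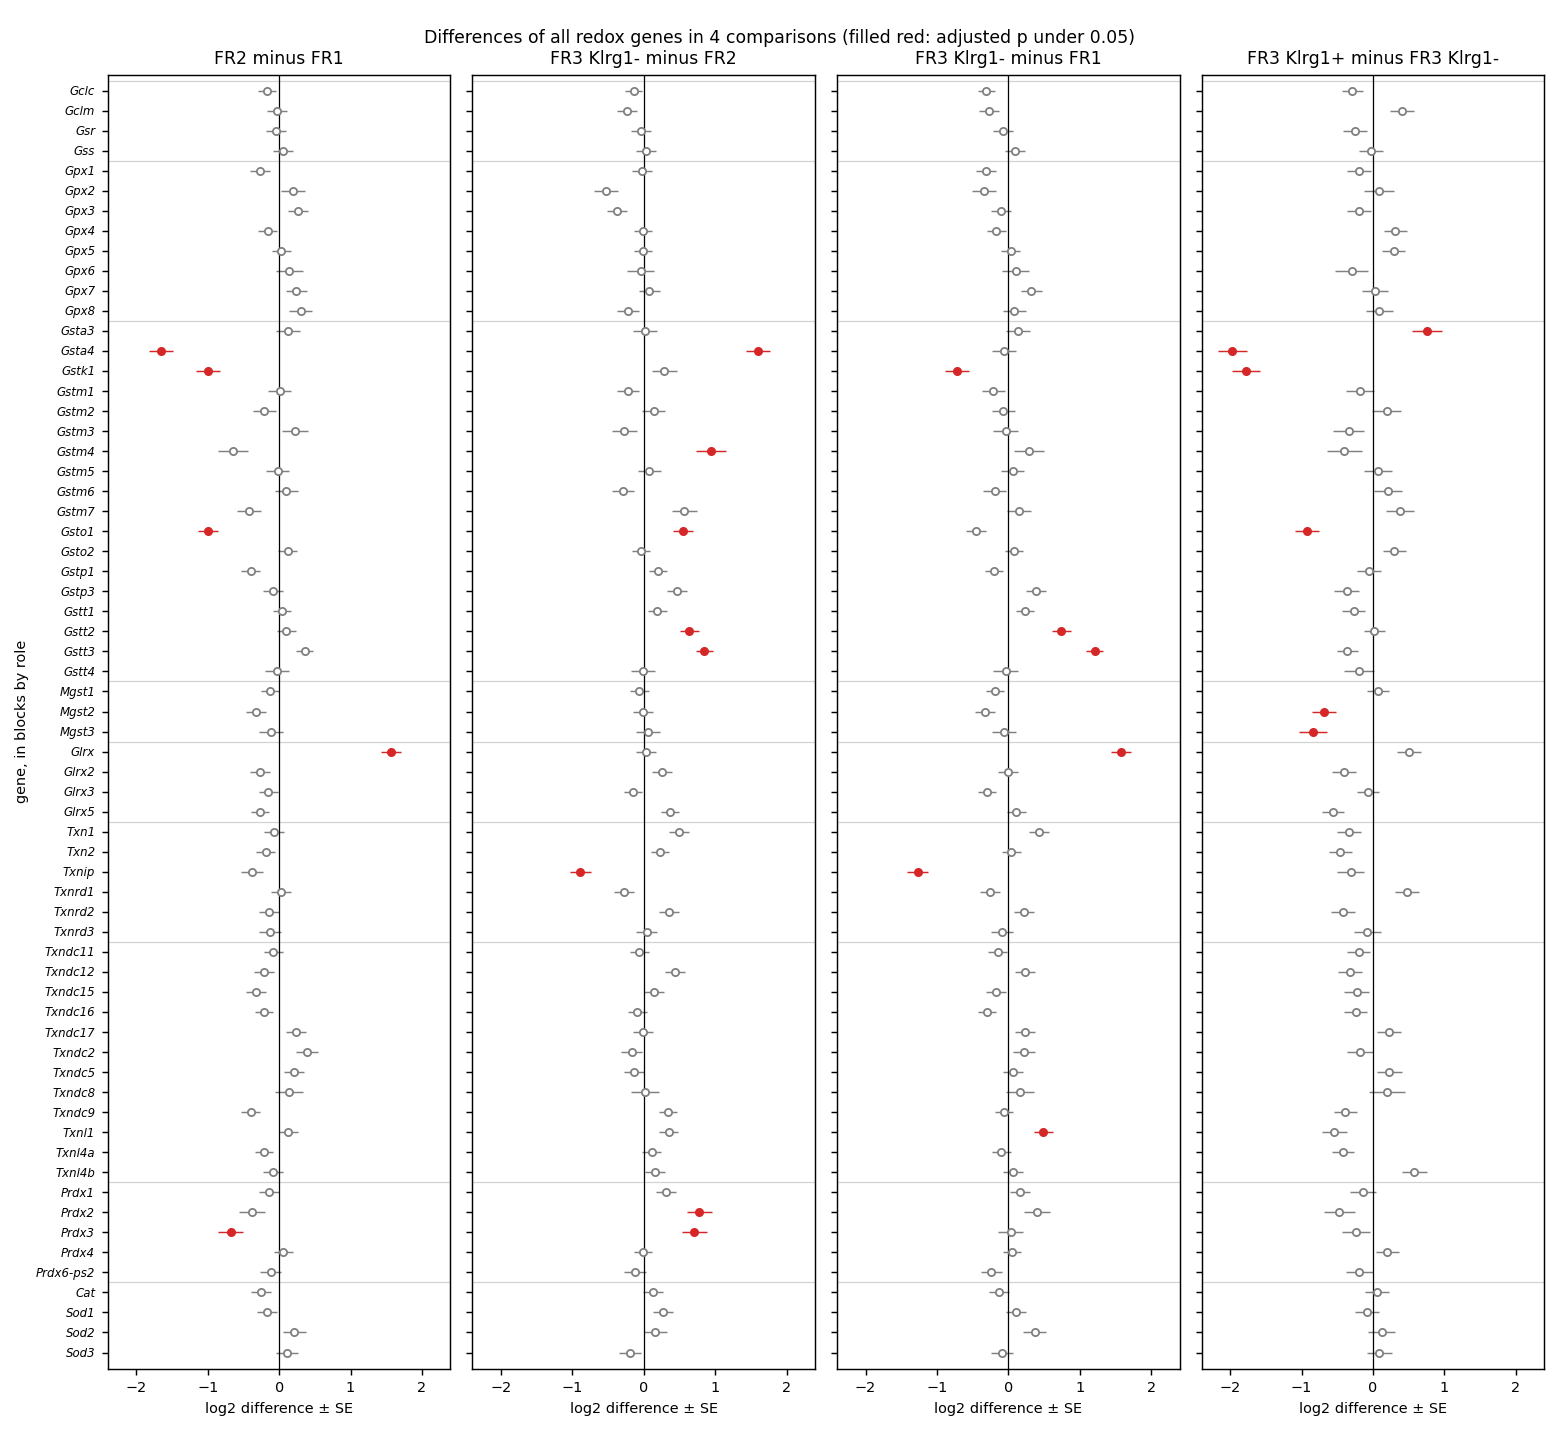
Difference of each of the 64 redox genes in the 4 comparisons (x axes, log2; bars, standard error of the limma fit), in blocks by role (y axis). Filled red points have an adjusted p under 0.05: they lie among the transferases, glutaredoxins, peroxiredoxins, Txnip and Txnl1, and none lies in the blocks of glutathione synthesis, glutathione peroxidases or dismutases and catalase.

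The calls were spread over several families, and whether the families differ was not tested. The 18 soluble transferases gave 7 of the 14 called genes (Gsta3, Gsta4, Gstk1, Gstm4, Gsto1, Gstt2 and Gstt3) and the microsomal ones Mgst2 and Mgst3, and the others were Glrx, Txnip, Txnl1, Prdx2 and Prdx3.

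Promoters are shown for Txnip and Glrx, the called genes with the largest fall and rise between FR1 and FR3 Klrg1-. Each is the stretch from 250 bases before to 50 after the first listed start, from RefSeq on GRCm38.p6, plus strand. In Txnip (chr3:96557707-96558006) capitals mark a carbohydrate response element (a pair of CACGNG boxes 5 bases apart) and, before it, a forkhead core (TGTTTAC, here on the other strand). In Glrx (chr13:75839635-75839934) they mark an AP-1 site (TGANTCA).
Txnip: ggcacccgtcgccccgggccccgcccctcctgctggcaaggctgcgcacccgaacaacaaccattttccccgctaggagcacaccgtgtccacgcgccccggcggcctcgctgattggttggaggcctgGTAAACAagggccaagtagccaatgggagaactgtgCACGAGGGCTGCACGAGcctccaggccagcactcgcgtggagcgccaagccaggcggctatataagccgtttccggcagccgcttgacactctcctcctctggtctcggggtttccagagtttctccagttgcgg
Glrx: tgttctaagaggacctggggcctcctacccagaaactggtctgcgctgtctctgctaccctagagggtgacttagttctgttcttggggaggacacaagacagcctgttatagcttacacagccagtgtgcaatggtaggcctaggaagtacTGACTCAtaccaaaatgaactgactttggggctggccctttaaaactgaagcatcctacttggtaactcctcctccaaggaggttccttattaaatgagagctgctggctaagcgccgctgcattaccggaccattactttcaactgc
Both strands were searched in 27025 promoters, which included 56 of the 64 redox genes. The carbohydrate response element was found in 14 genes (0.0518%), and Txnip was the 1 redox gene among them. The forkhead core was found in 3.55% of all promoters and in 3 of the 56 (Glrx2, Txnip and Txnl4b, 5.36%). The AP-1 site was found in 7.93% of all and in 5 of the 56 (Glrx, Gstm5, Gstp1, Mgst2 and Prdx1, 8.93%). The core of the antioxidant response element (TGACNNNGC), the site of the transcription factor NRF2, was found in 12.5% of all and in 7 of the 56, also 12.5% (Gclm, Gsta3, Gstm5, Mgst1, Prdx1, Sod1 and Txndc11). A match describes these letters only.

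Of the 4 enzymes of glutathione synthesis and reduction, 0 were called in any comparison, with Gclc in FR3 Klrg1- against FR1 and Gclm in FR3 Klrg1+ the ones with an unadjusted p under 0.05 in limma. Gclc, the catalytic subunit of glutamate-cysteine ligase, stood at 8.81 and 8.94 in FR1, 8.73 and 8.69 in FR2, 8.56 and 8.58 in FR3 Klrg1- replicates 1 and 2, 8.31 and 8.32 in replicates 3 and 4, and 8.03 in FR3 Klrg1+. The groups did not overlap within either set, and the difference of FR3 Klrg1- from FR1 was -0.31 (95% interval -0.57 to -0.04, adjusted p = 0.186 in limma). Gclm, its modifier subunit, stood at 7.80 and 7.84 in FR1, 7.71 and 7.88 in FR2, 7.50 and 7.60 in FR3 Klrg1- replicates 1 and 2, 7.36 and 7.07 in replicates 3 and 4, and 7.63 in FR3 Klrg1+. Its highest difference, 0.41 in FR3 Klrg1+ against FR3 Klrg1- (interval 0.05 to 0.77), had an adjusted p of 0.19 in limma. Gss, glutathione synthetase, was between 6.90 and 7.30 on every array, and its groups overlapped in every comparison. Gsr, glutathione reductase, was between 7.99 and 8.34 in the first set and between 7.41 and 7.70 in the second. Its differences lay between -0.25 and -0.04, with overlap in each comparison of the first set.

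Of the 8 glutathione peroxidases, 0 were called. All but Gpx1 and Gpx4 had means under percentile 40, so a change in them could be missed. An unadjusted p under 0.05 in limma was reached by 2 in FR3 Klrg1- against FR2, by 2 in FR3 Klrg1- against FR1 and by 0 in the other comparisons. Gpx1, which removes hydrogen peroxide, stood at 9.36 and 9.43 in FR1, 8.96 and 9.29 in FR2, 9.10 and 9.08 in FR3 Klrg1- replicates 1 and 2, 9.87 on both replicates 3 and 4, and 9.68 in FR3 Klrg1+. FR1 was above the other arrays of its set, and its difference from FR2 was -0.27 (FR2 minus FR1, interval -0.57 to 0.02). Gpx4, which reduces lipid peroxides, stood at 10.46 and 10.34 in FR1, 10.14 and 10.34 in FR2, 10.22 and 10.24 in FR3 Klrg1- replicates 1 and 2, 10.76 and 10.89 in replicates 3 and 4, and 11.14 in FR3 Klrg1+. The adjusted p closest to the threshold in this family was that of Gpx2, -0.53 in FR3 Klrg1- against FR2 (adjusted p = 0.0996 in limma).

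Among the 18 soluble glutathione transferases, which attach glutathione to reactive compounds, 3 fell and none rose from FR1 to FR2, and 5 rose and none fell from FR2 to FR3 Klrg1-. In FR3 Klrg1- against FR1, 2 rose and 1 fell, and in FR3 Klrg1+ against FR3 Klrg1-, 1 rose and 3 fell. Over all genes, 1.96% were called higher and 2.3% lower in FR2 against FR1, and 2.81% and 1.94% in FR3 Klrg1- against FR2. The shares were 4.39% and 3.79% in FR3 Klrg1- against FR1, and 2.14% and 2.82% in FR3 Klrg1+ against FR3 Klrg1-. Whether this family departs from them was not tested. Gsta4, Gstk1 and Gsto1 fell in both comparisons that have no array in common. The other calls were of Gstt2, Gstt3, Gstm4 and Gsta3. Markers of other cells moved in the same comparisons. Klrb1c, 1 of 4 NK cell markers, rose in FR3 Klrg1- against FR2 (1.09, adjusted p = 0.000267 in limma) and against FR1 (1.15, 4.72e-05), with values of 4.71 and 4.73 in FR1, 4.61 and 4.96 in FR2, and 5.90 and 5.84 in FR3 Klrg1- replicates 1 and 2. The mean of the NK list was 4.56 and 4.57 in FR1, 4.37 and 4.61 in FR2 and 4.90 and 4.99 in FR3 Klrg1-, and 2 of its 4 genes were dim on every array. In FR3 Klrg1- against FR1, 1 of 6 B cell markers (Cd79a, -0.68) and 1 of 2 CD8 markers (Cd8b1, -0.55) fell. In the same comparison, 2 of 5 T cell markers rose (Cd3e, 0.49, and Cd4, 0.50). Cd79a, at 4.21 to 5.28 over the arrays, was among the 3 B cell markers dim on every array. The mean of the B cell list lay between 5.48 and 5.65 over all arrays. The part of these cells in the redox values was not tested.

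Gsta4, which conjugates aldehydes left by lipid peroxidation, had the largest difference of the 64 genes in every comparison except FR3 Klrg1- against FR1. It stood at 8.81 and 8.36 in FR1, 6.81 and 7.05 in FR2, 8.59 and 8.46 in FR3 Klrg1- replicates 1 and 2, 9.73 and 9.41 in replicates 3 and 4, and 7.60 in FR3 Klrg1+. Both FR2 arrays were below every other array of their set, FR1 and FR3 Klrg1- overlapped, and the FR3 Klrg1+ array was below its comparison arrays. Gsta4 fell by 1.65 ± 0.17 (SE) from FR1 to FR2 (3.15-fold, adjusted p = 2.68e-05 in limma) and was 1.60 ± 0.17 higher in FR3 Klrg1- than in FR2 (3.03-fold, adjusted p = 4.88e-05 in limma). FR3 Klrg1- differed from FR1 by -0.06 (interval -0.41 to 0.30). In FR3 Klrg1+ it was 3.92-fold lower than in FR3 Klrg1- (-1.97 ± 0.20, adjusted p = 7.93e-05 in limma). In these bulk samples, fewer cells of a type and less RNA per cell cannot be told apart.

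Gsto1, an omega-class transferase that acts on thiols much as a glutaredoxin does, stood at 8.41 and 8.43 in FR1, 7.28 and 7.57 in FR2, 8.04 and 7.91 in FR3 Klrg1- replicates 1 and 2, 7.05 and 6.99 in replicates 3 and 4, and 6.10 in FR3 Klrg1+. No groups overlapped in any of the 4 comparisons. It fell by 1.00 ± 0.14 from FR1 to FR2 (adjusted p = 0.00041 in limma) and by 0.92 ± 0.17 from FR3 Klrg1- to FR3 Klrg1+ (adjusted p = 0.00625), and it was 0.55 ± 0.14 higher in FR3 Klrg1- than in FR2 (adjusted p = 0.0302). The last call was lost without FR2 replicate 1 (0.40, adjusted p = 0.365), without FR3 Klrg1- replicate 1 (0.48, 0.285) and without FR3 Klrg1- replicate 2 (0.62, 0.111). Its difference between FR3 Klrg1- and FR1, -0.45, had an adjusted p of 0.0575, and of 0.04 in limma with the first set fitted alone. Leaving out FR3 Klrg1- replicate 3 or 4 gives that same fit.

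Gstk1, the kappa-class transferase of mitochondria and peroxisomes, stood at 6.88 and 7.13 in FR1, 5.97 and 6.02 in FR2, 6.12 and 6.45 in FR3 Klrg1- replicates 1 and 2, 7.09 and 6.64 in replicates 3 and 4, and 5.09 in FR3 Klrg1+. FR1 was above the other arrays of the first set, and FR3 Klrg1+ was below both arrays it is compared with. Gstk1 fell by 1.00 ± 0.17 from FR1 to FR2 (adjusted p = 0.00245 in limma), was lower in FR3 Klrg1- than in FR1 (-0.72 ± 0.17, adjusted p = 0.0122) and fell by 1.78 ± 0.20 from FR3 Klrg1- to FR3 Klrg1+ (adjusted p = 0.000173). The value of 5.09 is among the dim genes of its array, so the size of the last fall is uncertain. Without FR1 replicate 2, the first call was lost (-0.88, adjusted p = 0.0522) and so was the second (-0.59, 0.161). The second was also lost without FR3 Klrg1- replicate 1 (-0.55, 0.179).

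The theta-class genes Gstt2 and Gstt3 rose into FR3 Klrg1-. Gstt3 stood at 6.16 on both FR1 arrays, 6.58 and 6.47 in FR2, 7.42 and 7.33 in FR3 Klrg1- replicates 1 and 2, 6.84 on both replicates 3 and 4, and 6.48 in FR3 Klrg1+. Gstt2 stood at 7.02 and 7.12 in FR1, 7.10 and 7.23 in FR2, 7.80 and 7.81 in FR3 Klrg1- replicates 1 and 2, 7.48 and 7.39 in replicates 3 and 4, and 7.46 in FR3 Klrg1+. For both genes the FR3 Klrg1- arrays of the first set lay above all FR1 and FR2 arrays. Gstt3 was 1.21 ± 0.12 higher than in FR1 (2.32-fold, adjusted p = 1.1e-05 in limma) and 0.85 ± 0.12 higher than in FR2 (adjusted p = 0.000904). Gstt2 was 0.74 ± 0.13 higher than in FR1 (adjusted p = 0.00121) and 0.64 ± 0.13 higher than in FR2 (adjusted p = 0.00815). The Gstt2 call against FR2 was lost without FR2 replicate 1 (0.57, adjusted p = 0.123), FR3 Klrg1- replicate 1 (0.65, 0.0823) or FR3 Klrg1- replicate 2 (0.63, 0.0802). Gstt1, of the same class, stood at 5.49 and 5.37 in FR1, 5.41 and 5.51 in FR2, 5.77 and 5.54 in FR3 Klrg1- replicates 1 and 2, 5.74 and 5.69 in replicates 3 and 4, and 5.45 in FR3 Klrg1+, and was not called.

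The theta genes lie side by side on chromosome 10, in the RefSeq order Susd2, Cabin1, Ddt, Gstt3, Gstt1, Gstt4, Gstt2, Mif, Derl3 and Smarcb1. From FR2 to FR3 Klrg1-, Gstt3, Gstt2, Susd2 (1.06 ± 0.18, adjusted p = 0.0023 in limma) and Mif, the cytokine macrophage migration inhibitory factor (0.95 ± 0.13, adjusted p = 0.000614), rose. Gstt1 (0.19, adjusted p = 0.57) and Gstt4 (-0.01, 0.995), which sit between them, were not called. Among the 7 mu-class genes on chromosome 3, Gstm4 was the 1 called. Gsto2, next to Gsto1 on chromosome 19, differed by 0.12 ± 0.13 between FR2 and FR1 (adjusted p = 0.728) where Gsto1 fell by 1.00. Gsto2 (5.07 to 5.58 over the arrays), Gstt1, Gstt4 and the mu-class genes other than Gstm4 had means under percentile 40. A change in such dim genes could be missed, so they say little on whether neighbours move apart. Near-identical copies within these classes can share probe signal.

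**Figure D2:**
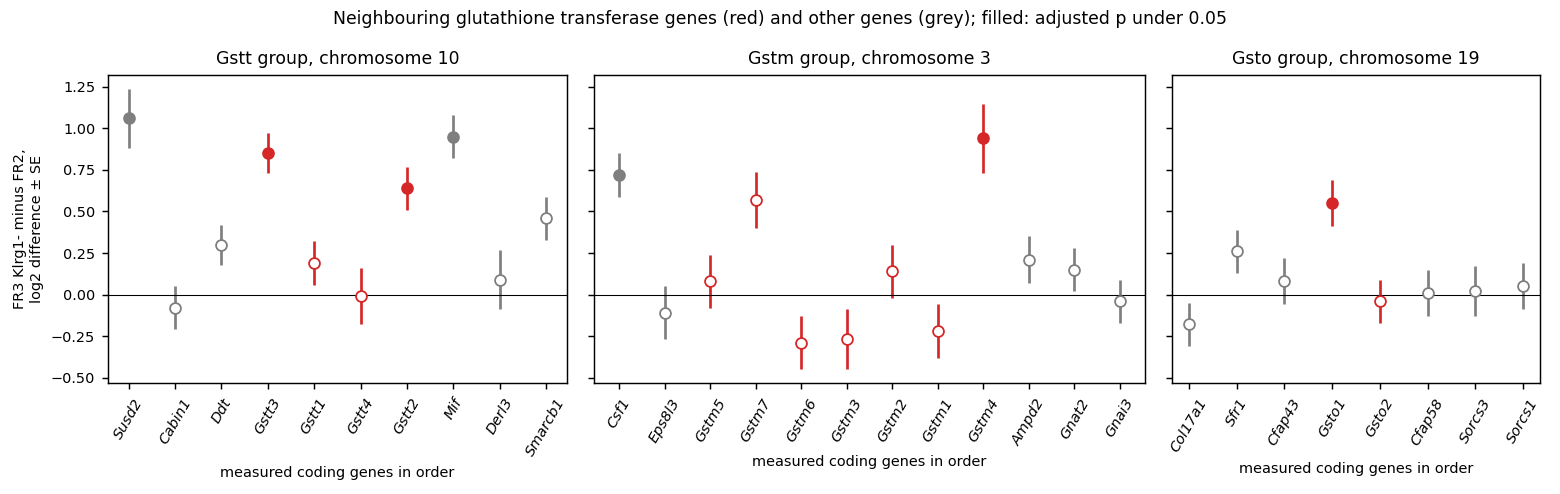
Difference between FR3 Klrg1- and FR2 (y axis, log2, bars are SE) for the measured coding genes of 3 stretches in chromosome order (x axes), with transferases in red, other genes in grey and filled points for an adjusted p under 0.05. Gstt3 and Gstt2 are filled while Gstt1 and Gstt4 between them are open, Gstm4 is the 1 filled mu-class gene, and Gsto1 is filled beside an open Gsto2. Every open transferase is a dim gene, with a mean under percentile 40.

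Gstm4, of the mu class, stood at 6.78 and 6.68 in FR1, 6.20 and 5.96 in FR2, 7.17 and 6.88 in FR3 Klrg1- replicates 1 and 2, 5.91 and 6.72 in replicates 3 and 4, and 5.91 in FR3 Klrg1+. FR2 was lowest in the first set without overlap, while replicate 3 in the second set stood at the level of FR3 Klrg1+ and replicate 4 above it. Gstm4 was 0.94 ± 0.21 higher in FR3 Klrg1- than in FR2 (adjusted p = 0.0154 in limma). The call was lost without FR2 replicate 1 (1.06, adjusted p = 0.0695), FR2 replicate 2 (0.82, 0.137) or FR3 Klrg1- replicate 1 (0.80, 0.174). The difference of -0.65 between FR2 and FR1 (adjusted p = 0.0961) passed with the first set fitted alone (0.00999 in limma). Leaving out FR3 Klrg1- replicate 3 or 4 gives that same fit. Without FR3 Klrg1- replicate 3 the difference of FR3 Klrg1+ from FR3 Klrg1- was -0.80, with a single array left on each side. Gsta3, an alpha-class enzyme that also isomerises steroids, stood at 5.91 and 5.40 in FR1, 5.73 and 5.81 in FR2, 5.95 and 5.62 in FR3 Klrg1- replicates 1 and 2, 7.30 and 7.15 in replicates 3 and 4, and 7.98 in FR3 Klrg1+. The groups overlapped throughout the first set, and FR3 Klrg1+ was above both arrays of its comparison (0.75 ± 0.21, adjusted p = 0.0488). This call was lost on leaving out FR2 replicate 1 or 2 or FR3 Klrg1- replicate 1 or 2. Those arrays enter the comparison only through the shared estimate of the spread, and the difference stayed at 0.75. It was also lost without FR3 Klrg1- replicate 4, where the difference was 0.68.

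Gstp1, the pi-class enzyme, was not called. It stood at 11.01 and 10.88 in FR1, 10.40 and 10.69 in FR2, 10.76 and 10.74 in FR3 Klrg1- replicates 1 and 2, 10.88 and 10.87 in replicates 3 and 4, and 10.82 in FR3 Klrg1+. FR2 was lowest, with a difference of -0.40 from FR1 (interval -0.69 to -0.11, adjusted p = 0.121 in limma, and 0.0346 with an intensity trend in the variance). The 11 soluble transferases without a call, Gstp1 among them, had differences between -0.42 and 0.57. Closest to the threshold were Gstm7 (0.57, adjusted p = 0.0677) and Gstp3 (0.47, 0.082), both in FR3 Klrg1- against FR2.

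Of the 3 microsomal transferases, which sit in membranes, Mgst2 and Mgst3 fell from FR3 Klrg1- to FR3 Klrg1+ and none was called elsewhere. Mgst1 was dim throughout, between 3.63 and 3.98. Mgst2, which can also form leukotriene conjugates, stood at 10.51 and 10.25 in FR1, 9.97 and 10.15 in FR2, 10.12 and 9.99 in FR3 Klrg1- replicates 1 and 2, 11.10 and 11.09 in replicates 3 and 4, and 10.41 in FR3 Klrg1+. It fell by 0.69 ± 0.17 in FR3 Klrg1+ (adjusted p = 0.0307 in limma), and with the second set fitted alone the adjusted p was 0.0666. Mgst3 stood at 6.46 and 6.01 in FR1, 6.06 and 6.19 in FR2, 6.05 and 6.31 in FR3 Klrg1- replicates 1 and 2, 6.17 and 5.87 in replicates 3 and 4, and 5.19 in FR3 Klrg1+. The groups of the first set overlapped for Mgst3, while FR3 Klrg1+ was below both arrays it is compared with. It fell by 0.84 ± 0.20 (adjusted p = 0.0304), a call lost without FR3 Klrg1- replicate 3 (-0.69, adjusted p = 0.083). In the same comparison, 1 of 6 macrophage and monocyte markers fell (Vcam1, -1.12, adjusted p = 0.00921), 1 of 4 NK cell markers fell (Klrb1c, -0.66, adjusted p = 0.0376) and 1 of 6 dendritic cell markers rose (Flt3, 0.91, adjusted p = 0.00374). The mean of the macrophage and monocyte list was 5.82 and 6.04 on the FR3 Klrg1- arrays and 5.42 in FR3 Klrg1+, and 4 of its 6 genes were dim on every array. The part of these cells in the transferase values was not tested.

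Glrx, glutaredoxin-1, which takes glutathione off protein thiols, was the 1 redox gene that rose from FR1 to FR2. It stood at 6.99 and 7.28 in FR1, 8.65 and 8.74 in FR2, 8.77 and 8.67 in FR3 Klrg1- replicates 1 and 2, 8.87 and 8.82 in replicates 3 and 4, and 9.34 in FR3 Klrg1+. FR1 was low, and the arrays of FR2 and FR3 Klrg1- overlapped. Glrx rose by 1.56 ± 0.14 from FR1 to FR2 (2.94-fold, adjusted p = 7.62e-06 in limma) and was 1.58 ± 0.14 higher in FR3 Klrg1- than in FR1 (2.99-fold, adjusted p = 1.75e-06). FR3 Klrg1- differed from FR2 by 0.03 (interval -0.26 to 0.32), and FR3 Klrg1+ from FR3 Klrg1- by 0.50 (interval 0.14 to 0.85, adjusted p = 0.106). The mitochondrial Glrx2 and Glrx5 and the iron-handling Glrx3 were not called. Glrx5, which serves iron-sulfur cluster assembly, came closest, at -0.56 in FR3 Klrg1+ against FR3 Klrg1- (adjusted p = 0.0604).

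**Figure D3:**
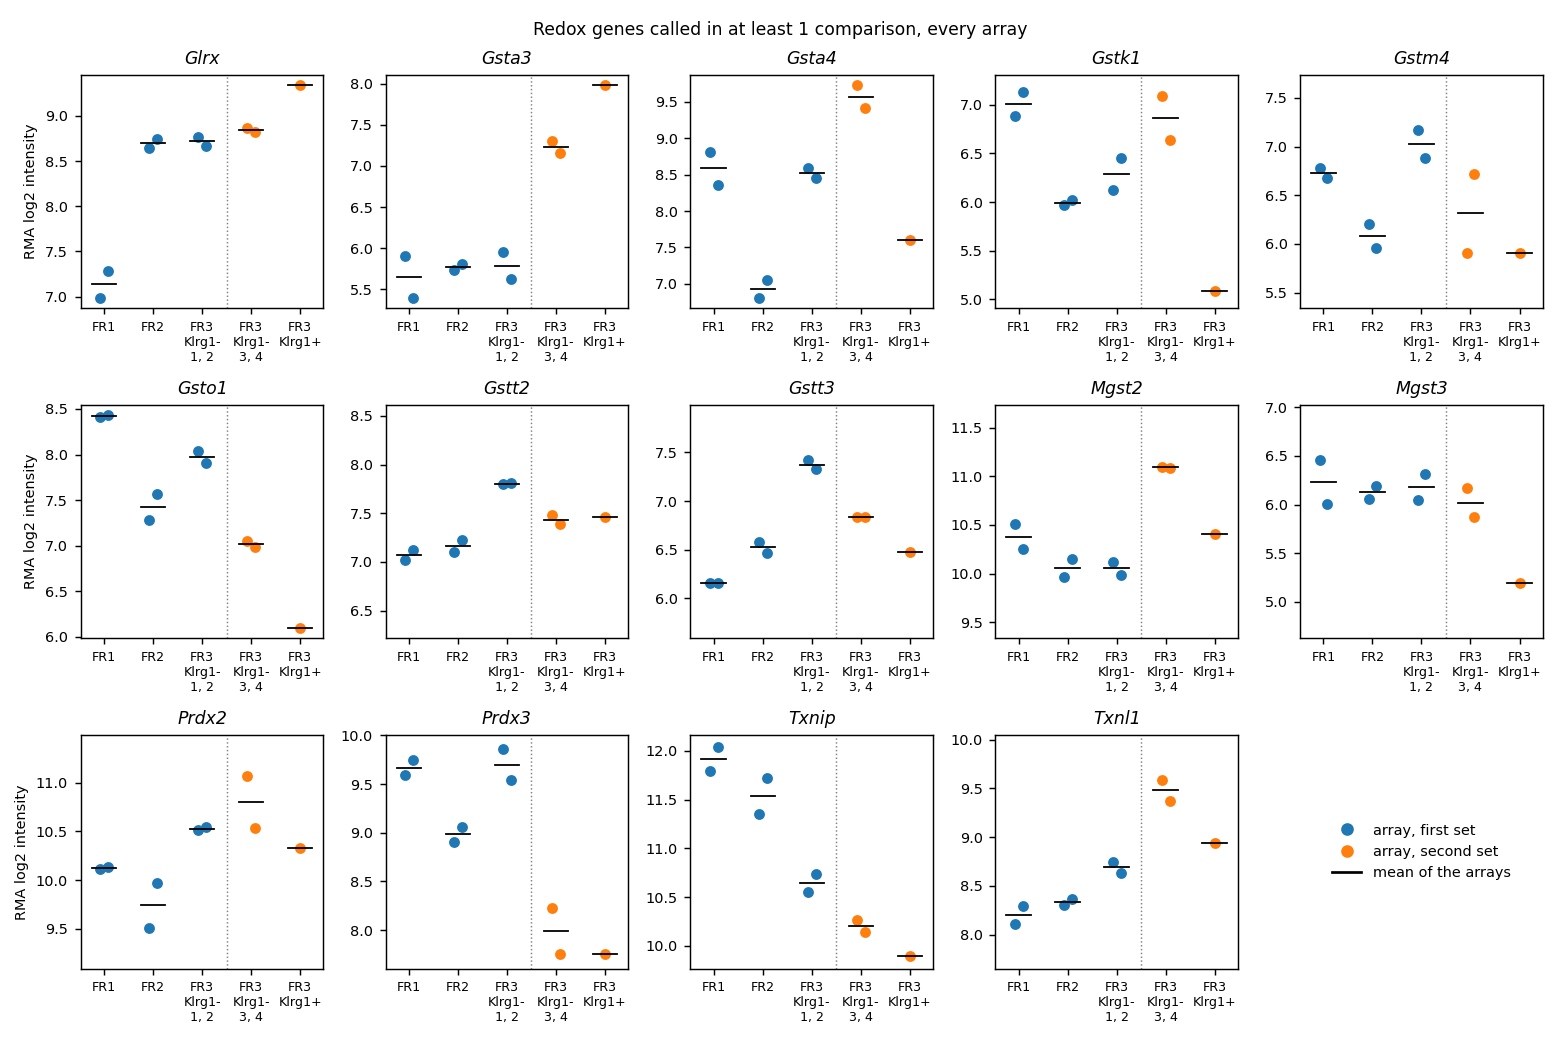
RMA log2 intensity (y axes, each with its own range) of the 14 called redox genes on each of the 9 grouped arrays (points), with the mean of each group (lines). Blue points are the first array set and orange points the second, and the dotted line marks that levels are not compared between them. Both FR2 points of Gsta4 lie below all others of their set, both FR1 points of Glrx lie lowest, and the Txnip points of FR3 Klrg1- lie below those of FR1 and FR2.

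In the thioredoxin system, Txnip fell into FR3 Klrg1-, and thioredoxin itself lay at the threshold. Txnip, which binds thioredoxin, curbs glucose uptake and is itself induced by glucose, stood at 11.79 and 12.04 in FR1, 11.35 and 11.72 in FR2, 10.55 and 10.74 in FR3 Klrg1- replicates 1 and 2, 10.26 and 10.14 in replicates 3 and 4, and 9.89 in FR3 Klrg1+. The groups did not overlap in any comparison. Txnip was 2.41-fold lower in FR3 Klrg1- than in FR1 (-1.27 ± 0.15, adjusted p = 4.82e-05 in limma) and fell by 0.89 ± 0.15 from FR2 (adjusted p = 0.00281). The fall from FR2 was lost without FR2 replicate 2 (-0.71, adjusted p = 0.0541) or FR3 Klrg1- replicate 1 (-0.80, 0.0581). From FR1 to FR2 it differed by -0.38 (interval -0.70 to -0.05, adjusted p = 0.207), and FR3 Klrg1+ differed from FR3 Klrg1- by -0.31 (adjusted p = 0.389).

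Txn1, the cytosolic thioredoxin, stood at 11.22 and 11.03 in FR1, 10.90 and 11.20 in FR2, 11.58 and 11.52 in FR3 Klrg1- replicates 1 and 2, 11.71 on both replicates 3 and 4, and 11.37 in FR3 Klrg1+. The FR3 Klrg1- arrays were above all others of the first set, by 0.50 ± 0.14 against FR2 (adjusted p = 0.0523 in limma) and 0.43 ± 0.14 against FR1 (0.0772), just outside the threshold. Against FR2 it passed with the first set fitted alone (adjusted p = 0.0358 in limma). Leaving out FR3 Klrg1- replicate 3 or 4 gives that same fit, so these do not count as separate passes. Against both groups it passed with an intensity trend (0.00722 and 0.0138), with dim genes left out (0.021 and 0.0352) and with array weights (0.0166 and 0.0433). In the other alternatives Txn1 was not called. Txn2, the mitochondrial thioredoxin, stood at 9.39 and 9.53 in FR1, 9.15 and 9.39 in FR2, 9.47 and 9.53 in FR3 Klrg1- replicates 1 and 2, 8.36 and 8.24 in replicates 3 and 4, and 7.84 in FR3 Klrg1+. None of the 3 reductases was called. Txnrd1, of the cytosol, stood at 8.26 and 8.13 in FR1, 8.24 and 8.18 in FR2, 7.93 and 7.94 in FR3 Klrg1- replicates 1 and 2, 7.71 and 8.03 in replicates 3 and 4, and 8.35 in FR3 Klrg1+. Txnrd2, of mitochondria, stood at 7.12 and 7.24 in FR1, 6.94 and 7.16 in FR2, 7.40 and 7.41 in FR3 Klrg1- replicates 1 and 2, 6.70 and 6.93 in replicates 3 and 4, and 6.39 in FR3 Klrg1+. In FR3 Klrg1+ against FR3 Klrg1- the values of the reductases were 0.48 for Txnrd1 (interval 0.12 to 0.84) and -0.42 for Txnrd2 (interval -0.78 to -0.06), and Txnrd1 passed without FR3 Klrg1- replicate 4 (0.64, adjusted p = 0.0332).

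Of the 12 thioredoxin-like proteins, Txnl1, which associates with the proteasome, was the 1 called. It stood at 8.11 and 8.29 in FR1, 8.30 and 8.37 in FR2, 8.75 and 8.63 in FR3 Klrg1- replicates 1 and 2, 9.59 and 9.37 in replicates 3 and 4, and 8.94 in FR3 Klrg1+. It was 0.49 ± 0.13 higher in FR3 Klrg1- than in FR1 (adjusted p = 0.0359 in limma), a call lost on leaving out any 1 array of the first set. The FR2 arrays enter this comparison only through the shared estimate of the spread, and without FR2 replicate 1 or 2 the difference stayed at 0.49. Without FR1 replicate 1 or 2 it was 0.40 and 0.57, and without FR3 Klrg1- replicate 1 or 2 it was 0.43 and 0.55. In FR3 Klrg1+ against FR3 Klrg1- the difference of -0.54 (adjusted p = 0.0766) passed without FR3 Klrg1- replicate 4 (-0.65, 0.0369). The differences of the other 11 thioredoxin-like genes lay between -0.42 and 0.58, the highest being Txnl4b in FR3 Klrg1+ against FR3 Klrg1- (adjusted p = 0.0611).

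Among the 5 peroxiredoxins, which reduce peroxides with electrons from thioredoxin, Prdx3 fell from FR1 to FR2, and Prdx2 and Prdx3 rose from FR2 to FR3 Klrg1-. Prdx3, the mitochondrial form, stood at 9.59 and 9.75 in FR1, 8.91 and 9.06 in FR2, 9.86 and 9.54 in FR3 Klrg1- replicates 1 and 2, 8.23 and 7.75 in replicates 3 and 4, and 7.75 in FR3 Klrg1+. Prdx2, a cytosolic form, stood at 10.11 and 10.13 in FR1, 9.51 and 9.97 in FR2, 10.51 and 10.54 in FR3 Klrg1- replicates 1 and 2, 11.07 and 10.53 in replicates 3 and 4, and 10.33 in FR3 Klrg1+. FR2 was below both neighbours for each gene, without overlap. Prdx3 fell by 0.68 ± 0.17 from FR1 (adjusted p = 0.0302 in limma) and was 0.71 ± 0.17 higher in FR3 Klrg1- than in FR2 (adjusted p = 0.0214). Its fall was lost without FR1 replicate 1 (-0.76, adjusted p = 0.096), FR1 replicate 2 (-0.60, 0.243), FR2 replicate 1 (-0.60, 0.283) or FR2 replicate 2 (-0.76, 0.0854), and under quantile normalization (-0.62, 0.0503). Its rise was lost without FR2 replicate 1 (0.64, 0.234), FR2 replicate 2 (0.79, 0.0744) or FR3 Klrg1- replicate 1 (0.56, 0.273), and without the array set term the value was -0.14 (0.933). Prdx2 was 0.78 ± 0.18 higher in FR3 Klrg1- than in FR2 (adjusted p = 0.02), a call lost without FR2 replicate 1 (0.55, 0.314), FR3 Klrg1- replicate 1 (0.80, 0.122) or FR3 Klrg1- replicate 2 (0.77, 0.124). Its difference of -0.47 in FR3 Klrg1+ (adjusted p = 0.251) passed without FR3 Klrg1- replicate 4 (-0.74, 0.0411).

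The 3 peroxiredoxin genes without a call, Prdx1, Prdx4 and the pseudogene Prdx6-ps2, had differences between -0.24 and 0.31. Prdx1, the other main cytosolic form, stood at 8.99 and 9.22 in FR1, 8.82 and 9.10 in FR2, 9.30 and 9.23 in FR3 Klrg1- replicates 1 and 2, 10.03 and 9.83 in replicates 3 and 4, and 9.79 in FR3 Klrg1+, and was not called. Red cells also hold much Prdx2 and catalase. The mean of the 4 measured of 7 listed erythroid markers was between 5.64 and 6.22 over the arrays, and highest in FR3 Klrg1+. None of these markers was called in any comparison. The part of red cells in the Prdx2 and Cat values was not tested.

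Of the 3 superoxide dismutases, which turn superoxide into hydrogen peroxide, and catalase, 0 were called, and Sod2 in FR3 Klrg1- against FR1 was the 1 with an unadjusted p under 0.05 in limma. Sod1, of the cytosol, stood at 11.28 on both FR1 arrays, 10.95 and 11.28 in FR2, 11.39 and 11.37 in FR3 Klrg1- replicates 1 and 2, 12.29 and 12.32 in replicates 3 and 4, and 12.23 in FR3 Klrg1+. Sod2, of mitochondria, stood at 8.61 and 8.64 in FR1, 8.66 and 9.01 in FR2, 9.03 and 8.96 in FR3 Klrg1- replicates 1 and 2, 7.94 and 8.33 in replicates 3 and 4, and 8.25 in FR3 Klrg1+. Its largest difference was 0.37 in FR3 Klrg1- against FR1 (interval 0.04 to 0.71, adjusted p = 0.199 in limma). Cat, the peroxisomal catalase, stood at 9.21 and 9.47 in FR1, 9.10 and 9.05 in FR2, 9.14 and 9.27 in FR3 Klrg1- replicates 1 and 2, 8.65 and 8.45 in replicates 3 and 4, and 8.61 in FR3 Klrg1+. Cat and Sod2 overlapped between FR3 Klrg1+ and FR3 Klrg1-.

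FR2 against FR1 and FR3 Klrg1+ against FR3 Klrg1- share no array and can be set side by side. The same sign was seen for 47 of the 64 redox genes (73.4%) and for 56% of all genes. Gsta4, Gstk1 and Gsto1 were called lower in both, which is 60% of the redox genes called in the first and 50% of those called in the second. Over all genes, 130 were called in the same direction in both, which is 15.3% and 13.1%. Across the 64 genes Pearson's r was 0.66 and Spearman's rho 0.48, against 0.21 and 0.18 across all genes, as a description over genes that are not independent. Glrx had 1.56 in the first and 0.50 in the second, and Gsta3 0.12 and 0.75.

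**Figure D4:**
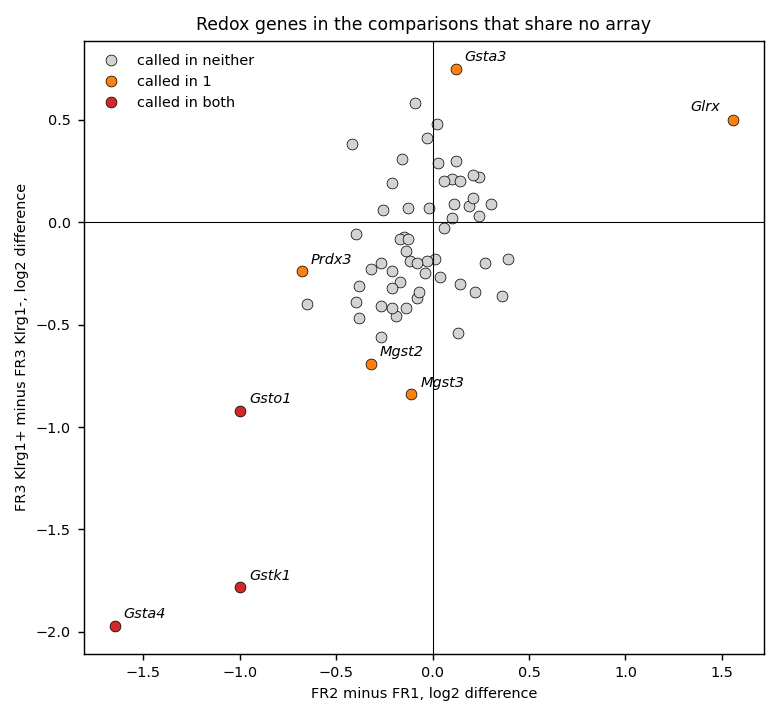
Difference of each of the 64 redox genes in FR2 against FR1 (x axis, log2) and in FR3 Klrg1+ against FR3 Klrg1- (y axis, log2), with genes called in both comparisons in red, in 1 in orange and in neither in grey. Gsta4, Gstk1 and Gsto1 lie apart at the lower left, and Glrx lies farthest to the right.

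Genes that control or feed these systems were followed in 7 lists. NRF2, encoded by Nfe2l2, switches on many of the redox genes, and Bach2 and the small Maf protein Mafk bind the same DNA site. Of 8 genes of NRF2 control, 2 fell from FR1 to FR2 (Bach2, -0.99 ± 0.16, adjusted p = 0.00188 in limma, and Mafk, -0.58 ± 0.15, 0.0378). From FR2 to FR3 Klrg1- Nfe2l2 fell by 0.73 ± 0.14 (adjusted p = 0.00682), with values of 8.40 and 8.32 in FR2 and 7.51 and 7.76 in FR3 Klrg1-. In FR3 Klrg1- against FR1 all 3 fell, Bach2 by 1.28, Nfe2l2 by 0.86 and Mafk by 0.52, and in FR3 Klrg1+ against FR3 Klrg1- 0 of the 8 were called (2 at an unadjusted p under 0.05). Of 14 genes outside the families, listed as NRF2 targets or relatives of them, Ftl1, ferritin light chain, fell from FR1 to FR2 (-0.57). Sesn3 rose from FR2 to FR3 Klrg1- (0.52), and in FR3 Klrg1- against FR1 the peroxiredoxin repair enzyme Srxn1 rose (0.76) and Sesn1 fell (-0.45). In FR3 Klrg1+ against FR3 Klrg1- 0 of the 14 were called (4 at an unadjusted p under 0.05 in limma). Sesn2, the other sestrin on the list, was called in no comparison, and control of these genes by NRF2 was not tested.

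For cysteine and glutathione supply, 11 of 15 genes were measured. Slc3a2, the shared heavy chain of amino acid transporters, rose in FR3 Klrg1- against FR2 (0.55, adjusted p = 0.0213 in limma) and against FR1 (0.57, 0.00929), and the glutamine carrier Slc1a5 rose against FR2 (0.47, 0.0455). The other comparisons had 0 calls (1 and 2 at an unadjusted p under 0.05). Slc7a11 (4.01 to 4.68) and Cth (4.66 to 4.93), also on this list, were dim on every array and called in no comparison. Whether the supply of cysteine changed was not tested. For NADPH supply, 11 of 12 genes were measured. Me2 fell by 0.70 from FR2 to FR3 Klrg1- (adjusted p = 0.00783). In FR3 Klrg1- against FR1, Me2 (-1.02, 0.00015) and the isocitrate dehydrogenases Idh1 (-0.81, 0.0203) and Idh2 (-0.54, 0.0172) fell. FR2 against FR1 and FR3 Klrg1+ against FR3 Klrg1- had 0 calls (4 and 2 at an unadjusted p under 0.05).

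The NADPH oxidase of phagocytes makes superoxide. Of its 6 measured genes, Cybb, the catalytic subunit, stood at 6.67 and 6.92 in FR1, 8.73 and 8.64 in FR2, 10.39 and 10.47 in FR3 Klrg1- replicates 1 and 2, 10.25 and 9.85 in replicates 3 and 4, and 9.35 in FR3 Klrg1+. It rose at each step of the first set and fell by 0.70 in FR3 Klrg1+ (adjusted p = 0.0426 in limma). Its partner Cyba fell by 0.87 from FR1 to FR2 (adjusted p = 0.00289), and Ncf1 was lower in FR2 (-0.67) and in FR3 Klrg1- (-0.70) than in FR1. The lists for selenoprotein synthesis (7 genes) and ferroptosis (10 genes) had 0 calls in each comparison. At an unadjusted p under 0.05 in limma they had 3, 0, 1 and 0 genes, and 0, 0, 0 and 4, in the order FR2 against FR1, FR3 Klrg1- against FR2, FR3 Klrg1- against FR1 and FR3 Klrg1+ against FR3 Klrg1-.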

How the data were processed

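Regulatory T cell RNA of 20 to 50 ng per sample was amplified and measured on Affymetrix Mouse Gene ST 1.0 arrays, per the labels. The authors deposited log2 intensities made with RMA (background correction, normalization between arrays and summary of probes), per the submitters' processing notes. The version, and whether all arrays were normalized together, are not given in the sources used here. Of 35556 probe sets, 21789 had 1 symbol in the probe table, 1621 several and 12146 none, and the brightest probe set per gene left 19938 genes. No intensity filter was used, and 20 of the 64 redox genes had a mean under percentile 40.

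One limma 3.58.1 fit in R 4.3.3 (lmFit, eBayes) over the 9 grouped arrays had group and array set as terms, with 4 residual degrees of freedom. FR3 Klrg1+, with 1 array, was taken to vary as the other groups do. Benjamini-Hochberg adjustment ran over all genes per comparison. Array number limits the precision.

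Values on every array are given for each called gene and for genes of the central steps, whether called or not. The redox genes and the lists were chosen with earlier results of these data known. Alternatives were no array set term, each set alone, a replicate block, an intensity trend, a filter on dim genes, quantile normalization, the mean over probe sets, array weights and leaving out each array in turn. Promoters came from RefSeq (GRCm38.p6).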

Additional observations from a re-analysis of the deposited data

Results flagged for a closer look

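In the 64 redox genes, the 4 FR3 Klrg1- arrays were searched for one that lies far from the others. Among arrays of a single set, chance alone gives this in about 1 of 20 groups. Replicate 3 stood apart for Glrx2 (10.1, the others 9.69 to 9.74) and for Prdx2 (11.07, the others 10.51 to 10.54), and replicate 4 for Gstm3 (6.29, the others 5.54 to 5.64). Replicates 3 and 4 belong to the second array set and replicates 1 and 2 to the first, so this search crosses the sets. That rate therefore does not apply here, and whether 3 genes of 64 exceed chance was not tested.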

How the results depend on the processing

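Without the array set term the redox genes called were 1 (FR2 against FR1), 0 (FR3 Klrg1- against FR2; 17 at an unadjusted p under 0.05 in limma), 2 (FR3 Klrg1- against FR1) and 0 (FR3 Klrg1+ against FR3 Klrg1-; 11 at an unadjusted p under 0.05), and Prdx3 in FR3 Klrg1- against FR2 reversed from 0.71 to -0.14. This term was chosen with the sets known. Array weights gave 13 calls in FR3 Klrg1- against FR2. For the comparisons within the first set, fitting that set alone and leaving out FR3 Klrg1- replicate 3 or 4 are the same fit. Leaving out each array in turn gave 3 to 6 calls in FR2 against FR1, 2 to 12 in FR3 Klrg1- against FR2, 4 to 7 in FR3 Klrg1- against FR1 and 5 to 9 in FR3 Klrg1+ against FR3 Klrg1-. The lowest counts of the first and second came without FR1 replicate 2 (3) and without FR3 Klrg1- replicate 1 (2), and FR3 Klrg1- against FR2 gave 3 and 5 without FR2 replicate 1 and 2, and 5 without FR3 Klrg1- replicate 2. The cause was not tested. Of 25 calls, 3 were kept in every alternative (Glrx in both comparisons and Txnip in FR3 Klrg1- against FR1) and 9 were lost only without the array set term. In the first set, the deviation of replicate 1 from its group mean was correlated between groups over all genes. It gave 0.18 (FR1 and FR2), 0.14 (FR1 and FR3 Klrg1-) and 0.02 (FR2 and FR3 Klrg1-). These values do not decide whether same-numbered arrays were paired, and no pairing entered the main fit. The replicate block gave 4, 8, 6 and 5 calls, and lost Prdx3 in FR2 against FR1 and Mgst3 in FR3 Klrg1+ (adjusted p = 0.0541 and 0.0509 in limma). Genes near background, such as Gstk1 and Mgst3 in FR3 Klrg1+, are limited by their signal.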

Other observations

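The array whose title and marker text disagree correlated at 0.973 to 0.975 with the second set and at 0.904 to 0.917 with the first. On it Glrx stood at 9.42, Txnip at 10.27, Gsto1 at 7.07, Gstt2 at 7.83, Gstt1 at 6.06 and Sod1 at 12.4. Of the 64 redox genes, 30 lay outside the range of the 3 grouped arrays of the second set. The share over all genes was not computed, so this count shows nothing particular to the redox genes.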
